A study of Caenorhabditis elegans with 6 samples.

Results

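The molting genes described here are mlt-8, mlt-10, mlt-11, noah-1, noah-2, fbn-1, nas-37, qua-1 and ptr-4, 9 genes of the epidermal molting cycle of Caenorhabditis elegans. They were chosen by name from what is known of molting, but with earlier results of these data known. Each symbol was matched to a single gene identifier, so that 9 of the 46726 genes in the count files were followed. They were read in each library as a marker of the point in the L4 molting cycle at which the animals were harvested.

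The libraries are polyA RNA-seq of touch receptor neurons, the cells that sense gentle touch to the body, sorted from dissociated L4 animals by green fluorescence. There were 3 libraries from mec-8(e398) mutants, which carry a mutation in a gene for an RNA-binding splicing factor, and 3 from wild-type animals. Both strains were described as carrying the integrated transgene zdIs5, in which the mec-4 promoter drives GFP in all 6 touch neurons, although the sample labels give the wild type only as N2. Animals were synchronized by bleaching, grown for a stated period with a range of some hours, and checked for the L4 stage by the shape of the vulva. No point within L4 is given for any single library. Each library came from a large pool of animals, and the study describes its replicates as biological. The labels do not say which cultures or sorts they came from, so the p-values measure the spread between these libraries, whatever its source.

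C. elegans replaces its cuticle at the end of every larval stage. The epidermis secretes a temporary apical matrix, then the collagens of the new cuticle, and lastly the proteases and other factors that free the old one, and transcripts of these genes rise and fall once per larval stage. Touch neurons lie against the epidermis but do not secrete the body cuticle.

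Reads counted on genes numbered between 15334872 and 33094142 per library, and each level is in CPM, a gene's counts set to a common total of reads on genes. A floor of 3 counts, below which a level is not read, corresponded to 0.0907 to 0.196 CPM. All 10 touch neuron markers were detected in every library, and their share of gene counts was 1.15%, 0.103% and 0.146% in mec-8 replicates 1, 2 and 3, against 1.47%, 0.162% and 0.483% in wild-type replicates 1, 2 and 3. The targeted gene mec-8 had 23.4, 6.48 and 2.60 CPM in the mutants and 35.3, 8.64 and 9.33 CPM in the wild type, with overlap between the groups, and gene counts do not show the e398 lesion itself. Wild-type replicate 1 stood apart technically, with 11.1% of its unique reads falling on more than 1 gene and between 2.62% and 3.04% in the other libraries. Ribosomal RNA genes took 9.35% of gene counts in wild-type replicate 1 and 5.25% in wild-type replicate 3, against 0.505% to 1.22% in the other libraries. Wild-type replicate 3 also had the fewest reads on genes. Genes with a count numbered 16940, 19659 and 13613 in mec-8 replicates 1, 2 and 3, against 13747, 18155 and 19218 in wild-type replicates 1, 2 and 3. The part of this difference in the molting gene values was not tested. In bulk samples such as these, fewer cells of a type and less RNA per cell cannot be told apart.

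Molting gene transcripts were present in every library and varied far more between libraries of the same genotype than between genotypes. Together the 9 genes took 0.00635%, 0.0425% and 0.00126% of all reads on genes in mec-8 replicates 1, 2 and 3, and 0.00242%, 0.136% and 0.0936% in wild-type replicates 1, 2 and 3. The mean share was 0.0167% ± 0.0225 in mec-8 and 0.0773% ± 0.0681 in wild type (SD, n = 3 each). Mutant replicate 2 and wild-type replicates 2 and 3 were therefore the libraries with high molting gene counts, and the groups overlapped. The difference of the means, -0.0606 percentage points, was -0.0313 without wild-type replicate 2 and -0.0980 without wild-type replicate 1.

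**Figure D1:**
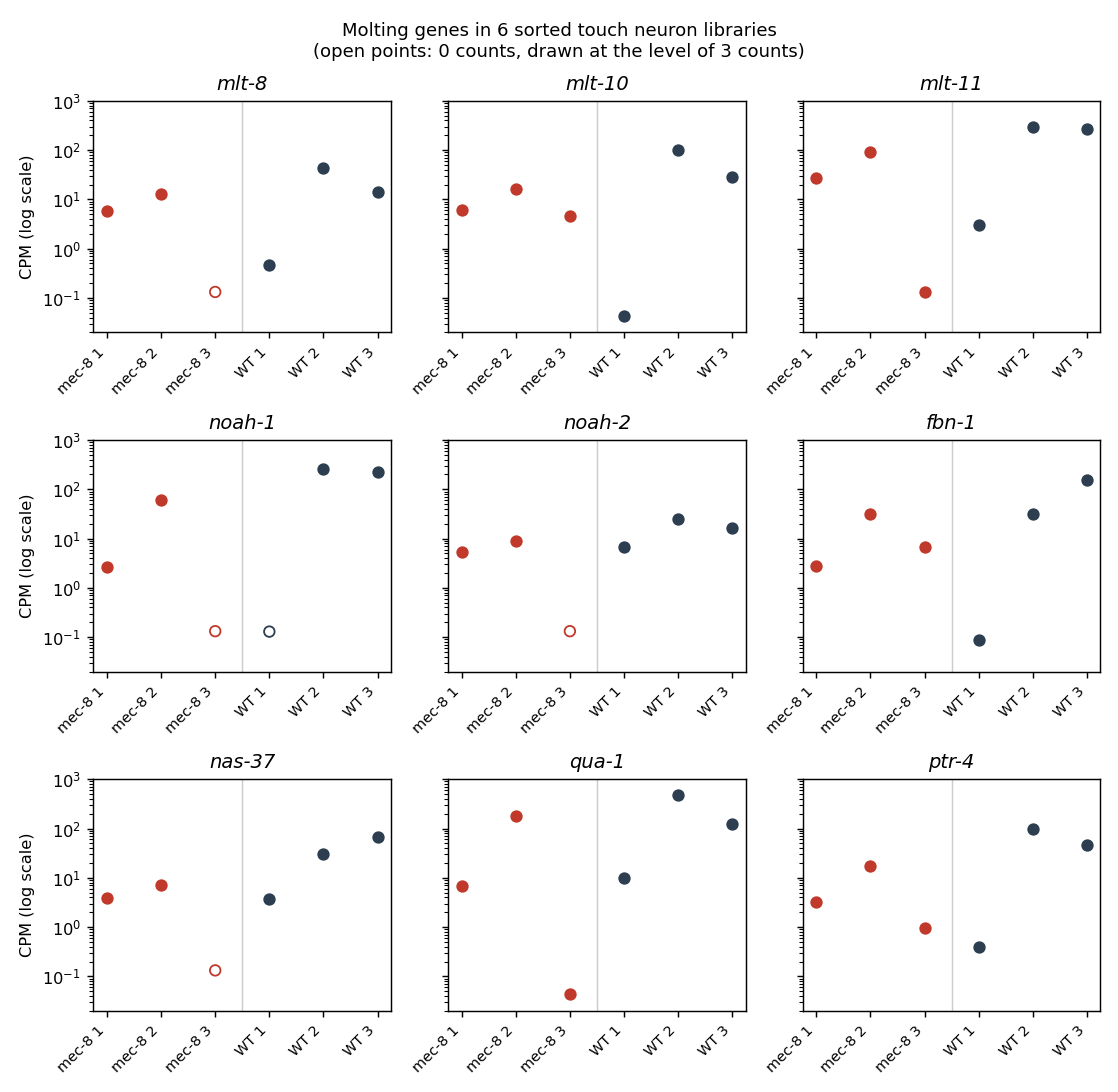
Level of each of the 9 molting genes in each library, in CPM on a log scale, with mec-8 libraries (red) left of wild-type libraries (dark blue). Each point is 1 library, and an open point marks 0 counts, drawn at the level of 3 counts. Mutant replicate 2 and wild-type replicates 2 and 3 hold the 3 highest points for every gene.

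The secreted and matrix-associated molting factors come first. mlt-8 (WBGene00021095), a gene needed to complete the molt, lies on chromosome II from 569210 to 572110 on the minus strand of WBcel235. It had 5.83, 12.7 and 0 CPM in mec-8 replicates 1, 2 and 3, and 0.475, 43.3 and 14.2 CPM in replicates 1, 2 and 3 of the wild type. The level in wild-type replicate 2 was at least 328-fold higher than in mec-8 replicate 3, where no read was counted, and the genotypes overlapped.

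mlt-10 (WBGene00015646) encodes a proline-rich repeat protein needed for molting and lies 17177 bases from mlt-8 on the same chromosome, from 546705 to 552032 on the plus strand. Its level was 6.04, 15.9 and 4.58 CPM in mec-8 replicates 1, 2 and 3, against 0.0432, 98.3 and 27.9 CPM in replicates 1, 2 and 3 of the wild type. The wild type thus held both the highest library and the lowest, and the lowest rested on 1 count. Their ratio was 2278 (95% counting interval 408 to 89993). In mec-8 replicate 3, which had no mlt-8 read, mlt-10 was well above the floor. The gene overlaps T27A1.3 by 240 bases and lips-7 by 179 bases on the same strand, and reads falling there may have been set aside or shared in counting.

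mlt-11 (WBGene00012186, chromosome V, 20667205 to 20678537, plus strand) encodes a protein with many Kunitz-type protease inhibitor domains. It reached 26.8, 90.6 and 0.132 CPM in mec-8 replicates 1, 2 and 3 and 3.02, 293 and 263 CPM in replicates 1, 2 and 3 of the wild type. Wild-type replicates 2 and 3 were close to each other and above mec-8 replicate 2, while mec-8 replicate 3 had only 3 counts.

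noah-1 and noah-2 encode zona pellucida domain proteins of the apical extracellular matrix. noah-1 (WBGene00016422, chromosome I, 5874416 to 5878958, minus strand) had 2.63, 60.2 and 0 CPM in mec-8 replicates 1, 2 and 3, against 0, 259 and 220.1 CPM in replicates 1, 2 and 3 of the wild type. It was the only molting gene without a read in a library of each genotype, where the floor of 3 counts corresponds to 0.132 CPM in mec-8 replicate 3 and 0.130 CPM in wild-type replicate 1. noah-2 (WBGene00009926, chromosome IV, 14091254 to 14096626, plus strand) had 5.35, 8.997 and 0 CPM in mec-8 replicates 1, 2 and 3 and 6.78, 25.2 and 16.1 CPM in replicates 1, 2 and 3 of the wild type. The pair differed in wild-type replicate 1, where noah-2 had 157 counts and noah-1 had 0.

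fbn-1 (WBGene00022816, chromosome III, 7625386 to 7641078, plus strand) encodes a fibrillin-related matrix protein and is known as a transcript whose splicing depends on mec-8 in the epidermis. Its level was 2.78, 31.9 and 6.83 CPM in mec-8 replicates 1, 2 and 3, against 0.0864, 31.5 and 157 CPM in replicates 1, 2 and 3 of the wild type. This was the gene with the least difference between mec-8 replicate 2 and wild-type replicate 2, and the only one besides nas-37 that was highest in wild-type replicate 3. Counts per gene hold no splice junctions, so its splicing was not analysed here. Its last 45 bases overlap upp-1 on the opposite strand, which had 12.8 CPM in mec-8 replicate 3, and whether the counting used strand is not given in the sources used here.

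nas-37 (WBGene00003553, chromosome X, 9944844 to 9949063, minus strand) encodes an astacin-type metalloprotease that helps to open the old cuticle. It had 3.87, 7.08 and 0 CPM in mec-8 replicates 1, 2 and 3 and 3.71, 29.8 and 68.6 CPM in replicates 1, 2 and 3 of the wild type. Its high libraries were wild-type replicates 3 and 2, and mec-8 replicate 1 and wild-type replicate 1 had nearly the same level. The gene shares 32 bases with C17G1.5 on the opposite strand, which had 23.9 CPM in mec-8 replicate 3 where nas-37 had 0.

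The last pair belongs to the hedgehog-related and patched-related families, which in nematodes serve largely in cuticle formation and molting. qua-1 (WBGene00004264, chromosome II, 8198803 to 8204004, plus strand), a hedgehog-related secreted protein, had 6.92, 181 and 0.0440 CPM in mec-8 replicates 1, 2 and 3, against 9.67, 481 and 124 CPM in replicates 1, 2 and 3 of the wild type. It had the most counts of the 9 genes in both replicate 2 libraries, and mec-8 replicate 3 had 1 count. ptr-4 (WBGene00004219, chromosome X, 6060758 to 6065986, minus strand), a membrane protein with a sterol-sensing domain, had 3.26, 17.3 and 0.969 CPM in mec-8 replicates 1, 2 and 3 and 0.389, 96.9 and 46.2 CPM in replicates 1, 2 and 3 of the wild type. It was detected in all 6 libraries, and the genotypes overlapped.

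All 9 genes had the same 3 libraries on top, mec-8 replicate 2 and wild-type replicates 2 and 3, an order shared by 13.3% of the 14614 genes tested. This order was noticed in these same values, so it is a description only. In CPM without further scaling, wild-type replicate 2 was highest for 7 genes, and wild-type replicate 3 for fbn-1 and nas-37. Among the low libraries, mec-8 replicate 3 was lowest for 6 genes and wild-type replicate 1 for 4, with noah-1 counted in both. At the low end, 4 genes had no read in mec-8 replicate 3 (mlt-8, noah-1, noah-2 and nas-37), and 1 had none in wild-type replicate 1.

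Compared per kilobase of exon within wild-type replicate 2, the order of levels was qua-1 (124.8 CPM per kb), noah-1 (68.2), mlt-10 (42.0), mlt-8 (39.2), ptr-4 (31.1), mlt-11 (29.9), nas-37 (11.7), noah-2 (9.81) and fbn-1 (3.30). The long fbn-1 and mlt-11 transcripts thus ranked lower per length than their counts did, and libraries made from polyA RNA may cover long transcripts unevenly, which was not tested.

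The mix of molting genes also differed between libraries. In mec-8 replicate 2 and wild-type replicate 2, qua-1 made up 42.5% and 35.4% of the counts on the 9 genes, but 13.3% in wild-type replicate 3. In that library mlt-11 (28.0%), noah-1 (23.5%) and fbn-1 (16.7%) held larger shares than qua-1. The libraries with few molting gene counts were unlike each other. Of 2101 counts in mec-8 replicate 1, 42.2% (95% Wilson interval 40.1 to 44.3) fell on mlt-11. Of 285 counts in mec-8 replicate 3, fbn-1 took 54.4% and mlt-10 36.5%. Of 560 counts in wild-type replicate 1, qua-1 took 40.0% and noah-2 28.0%. Intervals and floors cover counting error only, since reads without molecular identifiers are not independent molecules.

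**Figure D2:**
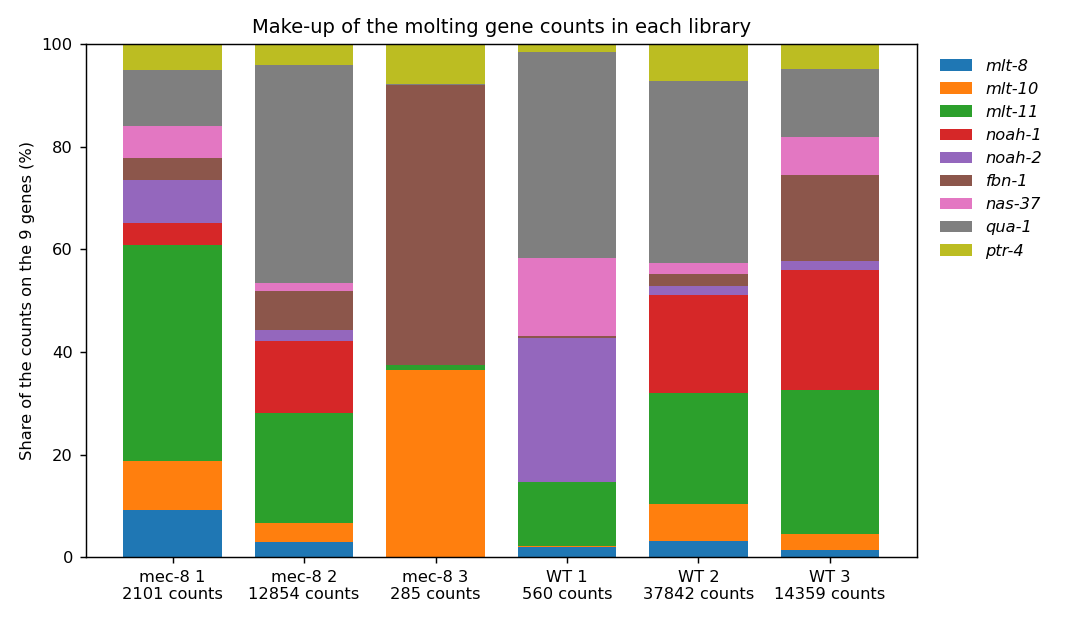
Share of the counts on the 9 molting genes taken by each gene, in percent, for each library, with mec-8 libraries left of wild-type libraries and the number of counts under each bar. Mutant replicate 3 consists almost wholly of fbn-1 and mlt-10, and qua-1 fills 42.5% of mec-8 replicate 2 and 35.4% of wild-type replicate 2.

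The high libraries were then set against each other gene by gene, as a comparison of libraries and not of genotypes. In mec-8 replicate 2, 8 of the 9 genes were below wild-type replicate 2, with ratios from 0.162 for mlt-10 to 0.375 for qua-1. The exception was fbn-1, at a ratio of 1.014 (95% counting interval 0.924 to 1.11). Against wild-type replicate 3, mec-8 replicate 2 was lowest for nas-37, at a ratio of 0.103, and qua-1 was the only gene above 1, at 1.45 (1.38 to 1.53). The gap between mec-8 replicate 2 and a wild-type library therefore differed from gene to gene with the wild-type library chosen. These ratios are of unscaled CPM, and their intervals cover counting error only. TMM scaling factors were 1.31 for mec-8 replicate 2 but 0.782 for wild-type replicate 3. The side of 1 on which qua-1 falls against wild-type replicate 3 thus depends on the scaling.

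The 2 high wild-type libraries also differed from each other, by less at the median. The median ratio over the 9 genes was 0.292 for mec-8 replicate 2 over wild-type replicate 2, 0.375 for mec-8 replicate 2 over wild-type replicate 3, and 0.640 for wild-type replicate 3 over wild-type replicate 2. The order of the first 2 of these medians also depends on the scaling, as wild-type replicate 2 had a TMM factor of 1.21. Between wild-type replicates 3 and 2, fbn-1 had a ratio of 4.97 (4.60 to 5.38) and nas-37 a ratio of 2.30 (2.10 to 2.52), while the other 7 genes were below 1, down to 0.258 (0.246 to 0.271) for qua-1. mlt-11 (0.898) and noah-1 (0.851) were the nearest to 1 among these 7. Scaled by the TMM factors, the summed share of the 9 genes was 0.112% in wild-type replicate 2 and 0.120% in wild-type replicate 3. This reverses the unscaled order of these libraries, so the side of 1 on which mlt-11 and noah-1 fall depends on the scaling. Thus within the wild type, genes of the same set stood on both sides of 1 in the same pair of libraries.

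Between genotypes, edgeR's quasi-likelihood test was run across 14614 genes, with Benjamini-Hochberg adjustment and a threshold of 0.05. None of the 9 molting genes passed, where 0.0% of all genes did, and each had an adjusted p of 1.0. At an unadjusted p under 0.05, 0 of the 9 were found, against 470 genes or 3.22% of all tested (0.349% of all tested on the lower side in mec-8). With DESeq2, 0 of the 9 passed and 44 genes overall did, 0.278% of those tested. For 0 of the 9 genes were the mutant libraries all on one side of the wild-type libraries, which held for 6.99% of all genes, 1.49% with mec-8 on the lower side.

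Every molting gene had a negative log2 fold change of mec-8 over wild type, as did 49.5% of all genes. The median over the 9 was -2.51, beside 0.01 over all genes tested. This median was given no test, since the 9 were chosen with earlier results of these data known. The estimates ran to -3.52 (SE 1.90) for nas-37, followed by -3.33 (SE 2.76) for noah-1 and -2.93 (SE 1.68) for ptr-4. Closest to 0 was mlt-8 at -1.70 (SE 1.97). These estimates moved with single libraries. Without mec-8 replicate 2, noah-1 stood at -6.66 and qua-1 at -5.55. Without wild-type replicate 2, mlt-8 stood at -0.75, mlt-10 at -1.14 and qua-1 at -0.78. Without wild-type replicate 3, nas-37 stood at -2.18 and fbn-1 at -0.36, so the order of the genes by size is not firm. The standard errors, from 1.68 for noah-2 and ptr-4 to 2.76 for noah-1, were large beside the estimates. The 9 genes are not independent of each other, since the same libraries were high or low for all of them.

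**Figure D3:**
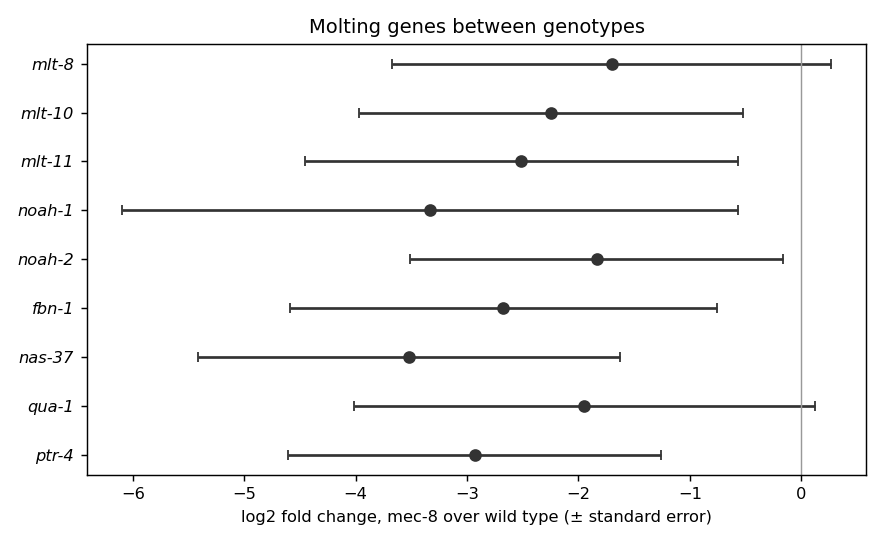
Log2 fold change of mec-8 over wild type for each molting gene, from edgeR's quasi-likelihood fit, with bars of 1 standard error to each side. All 9 points lie left of 0, between -3.52 and -1.70, and none passed the threshold after adjustment.

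Other genes of the molting cycle were read from lists of known roles in the same fit, and none of them passed the threshold. Of the regulators, 9 of 10 could be tested, 8 were negative and the median log2 fold change was -1.56. The most abundant regulator was myrf-2, a membrane-bound transcription factor, with 224, 117 and 74.3 CPM in mec-8 replicates 1, 2 and 3, against 7.25, 243 and 172 CPM in replicates 1, 2 and 3 of the wild type. It was the only regulator with a positive log2 fold change, at 0.05. nhr-23, a nuclear receptor that drives molting genes, had 67.6, 68.9 and 33.7 CPM in mec-8 replicates 1, 2 and 3, against 18.1, 41.0 and 185 CPM in replicates 1, 2 and 3 of the wild type. The related factor gene myrf-1 had 93.6, 71.8 and 26.1 CPM in mec-8 and 6.78, 141 and 141 CPM in wild type. These 3 regulators were higher in mec-8 replicate 1 than in wild-type replicate 1, and 5 of the 9 tested regulators had the library order of the molting genes.

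The mltn genes are relatives of mlt-10. Of 12 mltn genes 4 passed the filter on low counts, all 4 with the same 3 libraries on top, and their median log2 fold change was -2.41. The filter kept the members with counts, so these 4 do not stand for all 12. Of the 12, 9 had no read in mec-8 replicate 1, 10 in mec-8 replicate 3 and 7 in wild-type replicate 1. The filter asks for counts in 3 libraries, so most of these genes could pass mainly through the 3 on top. Their shared order is therefore not a separate result. mltn-9 was the most abundant, at 0.0302, 41.5 and 0.484 CPM in mec-8 replicates 1, 2 and 3, against 4.27, 109.9 and 44.7 CPM in replicates 1, 2 and 3 of the wild type.

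Apical matrix genes outside the 9 were mostly alike in direction, with 9 of 10 negative and a median of -1.41, and 5 shared the library order. The leucine-rich repeat protein gene sym-1 had 10.5, 182 and 0.484 CPM in mec-8 replicates 1, 2 and 3, against 0.604, 657 and 770.3 CPM in replicates 1, 2 and 3 of the wild type. The lipocalin gene lpr-3 had 11.6, 106 and 0.132 CPM in mec-8 and 7.69, 429 and 626 CPM in wild type. Both were highest in wild-type replicate 3, as fbn-1 and nas-37 were.

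Among the molting enzymes and uptake genes, 15 of 16 were tested, 11 were negative and 5 shared the order, with a median of -0.75. lrp-1, the megalin homologue through which the epidermis takes up sterols, had 13.1, 52.8 and 6.56 CPM in mec-8 replicates 1, 2 and 3, against 38.4, 144 and 47.0 CPM in replicates 1, 2 and 3 of the wild type. The peroxidase gene mlt-7 had 62.5, 84.4 and 3.52 CPM in mec-8 and 8.16, 68.2 and 8.22 CPM in wild type. For mlt-7 wild-type replicates 1 and 3 were nearly equal, unlike any of the 9 molting genes.

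Cuticle collagens mark points of the same cycle. The 6 early-wave dpy collagens, which are made before the main wave of cuticle synthesis, summed to 42.3, 369 and 0.352 CPM in mec-8 replicates 1, 2 and 3, against 9.97, 809 and 636 CPM in replicates 1, 2 and 3 of the wild type. All 6 had the library order of the molting genes, all 6 were negative and their median was -2.32. The 3 intermediate-wave collagens were less alike. They summed to 499.8, 1400 and 63.8 CPM in mec-8 replicates 1, 2 and 3, against 96.7, 1868 and 343 CPM in replicates 1, 2 and 3 of the wild type, so that mec-8 replicate 1 lay above wild-type replicate 3. Of these collagens only dpy-13 had the library order of the molting genes, and col-12 had a positive log2 fold change of 2.59, with 331 CPM in mec-8 replicate 1 as its highest level.

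The 5 collagens of the L4 and adult list were mixed, with 4 negative, a median of -1.69 and 2 in the order of the molting genes. The collagen col-19, which is made by the epidermis of adults, had 355, 0 and 158 CPM in mec-8 replicates 1, 2 and 3 and 2003, 0.0359 and 0.326 CPM in replicates 1, 2 and 3 of the wild type. The libraries with high molting genes were thus those with little or no col-19, and col-7 was likewise under 1 CPM in these libraries. The other members of the list did not divide the libraries this way. bli-2, a collagen of the adult cuticle struts, had 5.59, 64.2 and 0.837 CPM in mec-8 replicates 1, 2 and 3, against 1.94, 84.2 and 267 CPM in replicates 1, 2 and 3 of the wild type. rol-6 also had the order of the molting genes, and bli-1 was highest in wild-type replicate 3, at 145 CPM.

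Yolk genes, which are transcribed in the intestine of adult hermaphrodites, divided the libraries in the same way as col-19. Their share of gene counts was 4.68%, 0.000202% and 0.346% in mec-8 replicates 1, 2 and 3, against 0.554%, 0.00155% and 0.000248% in wild-type replicates 1, 2 and 3. Markers of the intestine itself took 0.177%, 0.248% and 2.58% in mec-8 replicates 1, 2 and 3, against 0.291%, 0.0536% and 0.0138% in wild-type replicates 1, 2 and 3. All 6 intestine markers had a positive log2 fold change, with a median of 3.31. Of these, 4 had an unadjusted edgeR p under 0.05, as did 3.22% of all genes tested, and none passed after adjustment. The yolk values thus stand beside differences in intestinal RNA whose part in them was not tested. Yolk and col-19 were high in 2 mec-8 libraries and in 1 wild-type library. With 3 libraries per genotype, harvest point and genotype cannot be told apart for the molting genes.

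**Figure D4:**
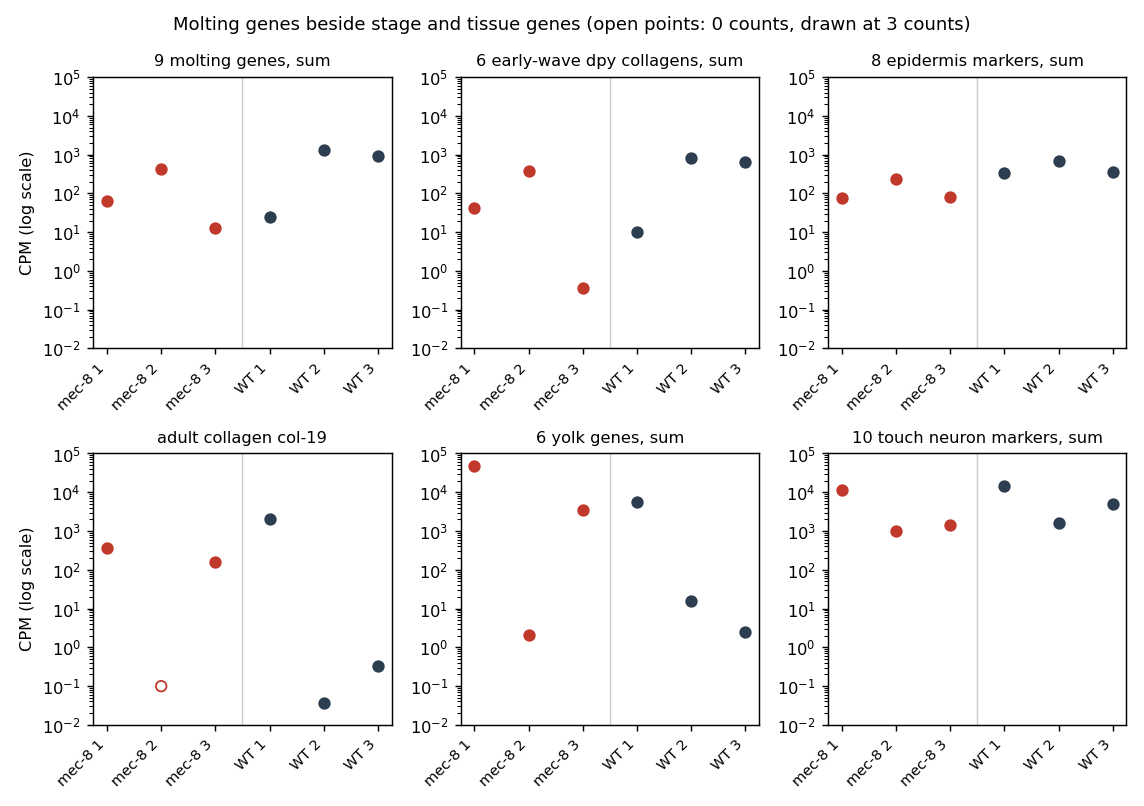
Summed or single gene level in CPM, on a log scale, for the 9 molting genes, 6 early-wave collagens, 8 epidermis markers, the adult collagen col-19, 6 yolk genes and 10 touch neuron markers, with mec-8 libraries (red) left of wild-type libraries (dark blue). The molting genes and early collagens are high in mec-8 replicate 2 and wild-type replicates 2 and 3, where col-19 is at most 0.326 CPM. The gene dpy-7 is counted both in the early-wave collagens and in the epidermis markers.

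Markers of the cells that make these transcripts did not follow one pattern. The 8 epidermis markers summed to 74.6, 231 and 81.8 CPM in mec-8 replicates 1, 2 and 3, against 329, 693 and 351 CPM in replicates 1, 2 and 3 of the wild type, and 3 of the 8 had the order of the molting genes. Of these markers dpy-7 is also an early collagen, nhr-25 a regulator and wrt-2 hedgehog-related. In wild-type replicate 2, wrt-2 held 423 CPM and dpy-7 159 CPM of the sum of 693 CPM. nhr-25 and dpy-7 were at 0 in mec-8 replicate 3, and nhr-25, wrt-2 and dpy-7 were at 0 in wild-type replicate 1. Other epidermis markers differed from these. The epidermal transcription factor gene lin-26 was highest in wild-type replicate 1, at 111 CPM, against 13.8 to 24.8 CPM in the mec-8 libraries and 23.7 to 23.9 CPM in the other wild-type libraries. clec-1 and elt-3 were highest in that library too, while elt-1 was lowest there, at 6.09 CPM. How much of each library came from epidermis was not measured, and its part in the molting gene values was not tested.

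Markers of other tissues also moved between libraries. Body wall muscle markers took 3.50%, 1.55% and 0.415% of gene counts in mec-8 replicates 1, 2 and 3, against 0.857%, 7.95% and 8.002% in wild-type replicates 1, 2 and 3, and 3 of the 6 had the order of the molting genes. Most of the sum in wild-type replicate 2 came from pat-10, at 73576 CPM. There unc-54 had 1819 CPM, and it was highest in mec-8 replicate 1, at 24877 CPM. unc-15 and myo-3 were highest in wild-type replicate 3, at 26720 and 1122 CPM. For pharynx markers the order was shared by 4 of 5, and of the 4 glia markers tested by 2. None of the 10 touch neuron, 7 pan-neuronal, 5 germline and 6 intestine markers had that order. The summed germline markers were highest in wild-type replicate 1, at 0.690% of gene counts, against 0.0971% to 0.329% in mec-8 libraries and 0.112% to 0.398% in the other wild-type libraries. Of the 5, only rme-2 (4644 CPM) and pgl-1 (492 CPM) were highest there. glh-1 was highest in wild-type replicate 3, at 3034 CPM, and fbf-1 in mec-8 replicate 2, at 288 CPM. The part of these tissues in the molting gene values was not tested.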

How the data were processed

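PolyA RNA of sorted touch receptor neurons was sequenced in 3 mec-8(e398) and 3 wild-type libraries, grouped by the sample labels. Per the labels and the study's methods, reads were aligned to WBcel235 by STAR, and HTSeq counts per gene were deposited by the authors without normalization. Counting settings, strand included, are not given in the sources used here. Lines for reads on no gene (0.385% to 3.57% of unique reads), on several genes or aligned to several places stayed out of totals and tests. Coordinates and exon lengths came from release 115 of the WBcel235 annotation, which held 46364 of the 46726 identifiers. No sequences were printed.

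Levels are CPM over reads on genes, and per kb where stated. The genotypes were compared with edgeR 4.0.16 (R 4.3.3; quasi-likelihood, TMM, filterByExpr, Benjamini-Hochberg, 0.05), tested on simulated data. Standard errors were obtained by dividing the size of each log2 fold change by the root of its F statistic. Alternatives were DESeq2 1.42.0, limma 3.58.1 voom with quality weights, other scalings and filters, a replicate block, and each library left out. Intervals (95%) used scipy 1.17.1.

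The members and lists were chosen with earlier results of these data known. Genes named were the 9, up to 4 of highest mean CPM per other list, and the 10 nearest in pattern. nhr-25, dpy-7, wrt-2, elt-1, elt-3, col-7, nas-36 and the overlapping genes were named after their values were seen.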

Additional observations from a re-analysis of the deposited data

How the results depend on the processing

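The log2 fold change of mec-8 over wild type was negative for 9 of 9 molting genes in every alternative that tested them, and none passed the adjusted threshold in any of these. A minimum of 10 counts in every library left 0 of the 9 to test. DESeq2 called 44 genes overall (31 higher and 13 lower in mec-8), against 0 with edgeR. The median over the molting genes was -3.34 with limma voom and sample quality weights and -2.51 with edgeR, and leaving out 1 library at a time gave medians from -3.74 (without mec-8 replicate 2) to -2.14. Leaving out libraries moved the difference in summed share between -0.0980 and -0.0313 percentage points. At an unadjusted p under 0.05, edgeR found 2 of the 9 without the filter, beside 1016 of all 24600 genes tested. Without wild-type replicate 1 it found 3 of the 9, beside 629 of all 15762 genes tested. The 9 genes move together over the libraries, so these counts are not independent findings. The labels do not say whether libraries with the same replicate number were paired. Correlations of their deviations were 0.06, 0.47 and -0.16 for replicates 1, 2 and 3, and 2 of 6 libraries correlated best with their own number. With 3 libraries per genotype these values cannot decide the pairing. With the replicate block the median was -2.23, 0 of the 9 were called, and fbn-1 stood at -0.07. A pseudocount of 1 CPM lowered the fold between highest and lowest library, for mlt-10 to 95.2 and for qua-1 to 462. The causes of these shifts were not tested. Levels at or under 3 counts, as for mlt-11 and qua-1 in mec-8 replicate 3, lie at or under the floor, and what limits them was not tested. That library had 13613 genes with a count from 22705762 reads on genes, against 19218 genes from 15334872 reads in wild-type replicate 3.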

Other observations

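Beyond qua-1, 35 of the 58 other hedgehog-related genes passed the filter on low counts, and none passed edgeR's adjusted threshold or reached an unadjusted p under 0.05. Of these 24 were negative for mec-8 over wild type, the median log2 fold change was -1.06, and 11 had mec-8 replicate 2 and wild-type replicates 2 and 3 as their highest libraries. The most abundant, grl-16, had 59.1, 1078 and 16.4 CPM in mec-8 replicates 1, 2 and 3, against 11.4, 893 and 61.0 CPM in replicates 1, 2 and 3 of the wild type. grd-14 had 16.4, 382 and 6.65 CPM in mec-8 and 6.48, 533 and 6.06 CPM in wild type. Both were high in replicate 2 of each genotype, while wild-type replicate 3 was near or below mec-8 replicate 1. The astacin gene nas-36 was also high in replicate 2 of each genotype, at 1.78, 67.7 and 0 CPM in mec-8 and 1.55, 66.9 and 7.56 CPM in wild type, and its 3 highest libraries were those of the molting genes. Of the 23 other patched-related genes 20 were tested, 15 were negative and 8 had the order of the molting genes, and of 34 other astacin genes 25 were tested, 18 were negative and 9 had that order.

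The genes nearest to the mean profile of the 9 over the 6 libraries were sought among 8134 genes with a mean of at least 10 CPM, by the root mean square difference of centred log2 (CPM + 1). The 9 genes themselves lay between 0.40 (ptr-4) and 1.34 (fbn-1) from their mean profile, so it describes some of them only loosely. The cadherin gene cdh-10 was nearest, at 0.25, where the median gene was at 2.37. It had 2.15, 18.9 and 0 CPM in mec-8 replicates 1, 2 and 3, against 0, 49.1 and 38.5 CPM in replicates 1, 2 and 3 of the wild type. The others, up to a difference of 0.44, were F59B10.5, K08B12.1, F31C3.6, lev-1, F41G3.3, nmy-3 and the collagens col-131, col-46 and col-172. Of these lev-1 encodes a subunit of the acetylcholine receptor of body wall muscle, and its level was 57.4 CPM in wild-type replicate 3, above the 44.1 CPM of wild-type replicate 2.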
